A study of Mus musculus with 18 samples.

Results

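The cohesin subunits described here are encoded by 8 genes: Smc1a, Smc1b, Smc3, Stag1, Stag2, Stag3, Rad21 and Rec8. They were found by gene name, or an older synonym of it, among the non-control probes present on all 18 arrays of the series. The 8 genes had 17 probes of the 41002 probes used, and all 17 probes passed the filter on dim probes that left 18878 genes for testing.

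Cohesin is a ring that holds sister chromatids together from DNA replication until they separate. A pair of SMC proteins forms the arms, a kleisin closes the ring, and a STAG protein binds the kleisin. Smc3 serves both kinds of division, while dividing somatic cells use Smc1a, the kleisin Rad21 and either Stag1 or Stag2. Germ cells entering meiosis make Smc1b in addition to Smc1a, Stag3 in addition to Stag1 and Stag2, and the kleisin Rec8 in addition to Rad21, and these meiotic forms build the chromosome axis on which homologues pair.

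The arrays covered 9 groups of 2 samples, all of mixed C57BL/6 and 129SV background and all labelled male. Mouse ES cells of 2 reporter lines were kept on feeder fibroblasts in Lif medium: Stella-GFP, which carries GFP in a Stella BAC, and Dazl-GFP. Undifferentiated cells of each line were sorted into GFP- and GFP+ fractions. GFP+ cells were also sorted from feeder-depleted cultures differentiated for 7 days (Stella-GFP) or for 12 or 16 days (Dazl-GFP), and the labels call these in vitro primordial germ cells. Dazl-GFP+ germ cells from the gonads of E13.5 embryos and from P7 to P11 testes stood for germ cells in vivo. Each ES reporter is a single line, so day 7 differs from days 12 and 16 in reporter and line as well as time. The labels do not say that replicates were separate cultures or animals, so p-values measure only the spread between these samples, which may be technical. In sorted cells a change of RNA per cell and a change in the share of cells of a type cannot be told apart.

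A level is the log2 processed signal of a probe minus the log2 75th percentile of its array, so 0 is that percentile. Where a gene had several probes, the one with the highest mean level over the arrays stood for it, and levels of different probes are not compared. Between 50.6% and 68.9% of spots were well above background on each array, and the 8 representative probes were well above background on all 18. The replicates correlated across genes at r between 0.943 (E13.5) and 0.994 (day 7), and genes are not independent replicates. The 2 E13.5 and 2 juvenile arrays filled 1 slide read on a day of its own. The day 7 arrays lay on 2 slides of their own, with another image extraction protocol. In comparisons of these groups with other cells, slide and group cannot be told apart. A gene was called where its limma p-value, Benjamini-Hochberg adjusted over all 18878 genes, was under 0.05.

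The library labelled E13.5 replicate 1 stood apart. The Y-linked genes Ddx3y (probe A_51_P402994), Eif2s3y and Kdm5d were not well above background on it, although they were on E13.5 replicate 2 and on both juvenile arrays. These levels go against its label of male, so the sex of its source is in doubt, and all 3 Xist probes were dim on every array. Of 4 granulosa and ovary markers, Wnt4 (-0.95 against -4.59) and Bmp2 (-3.74 against -6.79) were higher on it than on replicate 2, Fst was lower (-6.03 against -3.98), and Foxl2 was -3.51 against -3.33. Among Sertoli markers other than Dhh, Sox9 (-7.60 against -1.76), Amh (-5.00 against -1.30) and Wt1 (-3.88 against -1.75) were lower on it. So were Gata4 (-4.33 against -3.58), Clu (-2.17 against 1.18) and Cldn11 (-4.59 against -3.48), while Rhox5 was higher (8.70 against 7.67). Whether it came from male gonads was not tested. Its level of Stra8, which germ cells need to enter meiosis, exceeded that of replicate 2 by 7.33 log2 units. The gap was 4.51 for Meioc, 3.45 for Dmc1 and 2.90 for Sycp3, against a median of -0.06 over all genes. Among the members, Rec8 was higher in replicate 1 by 4.31, Smc1b by 1.88 and Stag3 by 0.98, while Rad21 was lower (-0.85). A larger gap in either direction occurred in 0.789% of genes for Rec8, 9.11% for Smc1b and 26.8% for Stag3. The E13.5 differences of the members' representative probes and the E13.5 list counts or medians are therefore also given without this library, while values of the other probes rest on both.

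The labelled cell types were checked against marker genes. All 9 germ cell markers were on the array, and their summed linear level (75th percentile as 1) was 12.1 to 49.3 in the undifferentiated fractions, 53.6 to 67.4 in the differentiated cells, 210 and 253 at E13.5 and 131 and 196 in juvenile cells. Against GFP+ ES cells of the same line, 2 were higher and 1 lower at day 7, 4 and 0 at day 12, and 4 and 1 at day 16. Of all genes 7.62%, 13.1% and 11.1% were higher there, and 13%, 14.2% and 13.6% lower. All 6 pluripotency markers were well above background in the differentiated cells, where they summed to 125 to 228. Against the same GFP+ ES cells, 2 of the 6 were lower and 0 higher at day 7, and 0 were called at days 12 and 16. The 6 markers summed to 26 and 58.9 at E13.5. In juvenile cells they summed to 15.1 and 15.6, with Nanog and Sox2 dim on both arrays. The summed level of 8 spermatocyte markers was 146 in E13.5 replicate 1, 6.9 in replicate 2, and 242 and 85.7 in the juvenile arrays. The 10 fibroblast markers, led by Col1a2, summed to 8.98 and 9.53 in Dazl-GFP- ES cells, 39.2 and 43 in Dazl-GFP+ ES cells, and 2.24 to 3.26 at days 12 and 16. Of 8 Sertoli markers, 4 were higher and 1 lower in juvenile cells than in Dazl-GFP+ ES cells (median 2.79), where 26.3% of all genes were higher and 27.5% lower. Likewise 4 were higher and 1 lower than at E13.5 (median 2.61), where 34.9% of all genes were called in either direction. All 8 Sertoli markers were well above background on both juvenile arrays. Their summed level was 52.3 and 12.9 there against 423 and 477 in Dazl-GFP+ ES cells. The ES sums were led by Rhox5, with log2 levels of 8.72 and 8.89 in those cells and of 2.73 and 0.71 in juvenile cells. They do not show the course of the other Sertoli markers. At E13.5 against day 16, 4 of 7 macrophage markers were higher and 1 lower, and 2 of 4 erythroid markers were higher, with summed levels at E13.5 of at most 1.01 and 2.42. In that comparison 42.5% of all genes were called in either direction. The part of these cell types in the in vivo differences was not tested. Dazl-GFP+ ES cells were the reference for 4 comparisons, which therefore share control samples.

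Upstream sequences of 300 bases (250 before to 50 after the annotated start, RefSeq, GRCm38.p6) were matched for 6 of the 8 members: Smc1a, Smc1b, Smc3, Stag1, Stag3 and Rec8. Those of the meiotic genes and of Smc1a are shown because Smc1b and Stag3 moved together across the groups while the representative probe of Smc1a did not. That probe gave no call in culture, but the second Smc1a probe was called at day 7 (0.73). They lie at chr15:85131908-85132207 on the minus strand (Smc1b), chr5:138280259-138280558 on the plus strand (Stag3), chr14:55617916-55618215 on the plus strand (Rec8) and chrX:152016178-152016477 on the plus strand (Smc1a). Capitals mark the E2F core TCCCGC, and in Stag3 also the E-box CACGTG.
Smc1b: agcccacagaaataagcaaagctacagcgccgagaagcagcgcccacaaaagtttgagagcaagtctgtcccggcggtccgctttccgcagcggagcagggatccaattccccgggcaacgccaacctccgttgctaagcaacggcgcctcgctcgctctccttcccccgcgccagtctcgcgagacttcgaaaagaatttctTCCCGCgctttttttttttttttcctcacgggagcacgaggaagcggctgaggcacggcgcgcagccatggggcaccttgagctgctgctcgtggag
Stag3: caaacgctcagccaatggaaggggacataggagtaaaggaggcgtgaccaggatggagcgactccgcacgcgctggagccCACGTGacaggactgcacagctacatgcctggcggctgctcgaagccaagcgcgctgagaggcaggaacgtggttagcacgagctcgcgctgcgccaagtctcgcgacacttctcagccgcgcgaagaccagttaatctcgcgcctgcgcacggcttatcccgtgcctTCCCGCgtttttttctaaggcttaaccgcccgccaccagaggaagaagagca
Rec8: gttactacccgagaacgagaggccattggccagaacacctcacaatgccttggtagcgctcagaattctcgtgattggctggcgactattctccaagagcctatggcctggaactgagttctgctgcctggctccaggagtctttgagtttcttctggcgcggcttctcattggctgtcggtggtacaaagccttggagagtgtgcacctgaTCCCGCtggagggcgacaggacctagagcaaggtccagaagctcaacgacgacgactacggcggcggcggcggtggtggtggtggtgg
Smc1a: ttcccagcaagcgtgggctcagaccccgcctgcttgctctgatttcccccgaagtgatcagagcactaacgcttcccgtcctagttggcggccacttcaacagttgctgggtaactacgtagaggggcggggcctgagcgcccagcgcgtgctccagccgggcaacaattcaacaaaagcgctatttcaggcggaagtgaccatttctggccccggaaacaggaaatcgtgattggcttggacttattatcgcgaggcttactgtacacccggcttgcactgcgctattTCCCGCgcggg

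All 6 windows held TCCCGC on one strand or the other, against 20.1% of 32544 distinct windows of that length. In Smc1b it lay at bases -47 to -42 from the start, in Stag3 at -2 to 4, in Rec8 at -38 to -33 and in Smc1a at 40 to 45. The core was thus present in meiotic and mitotic members alike. The longer TTCCCGCC, which contains the core, was in none of the 6 and in 2.2% of all windows. CACGTG, which does not overlap the core, was in the Stag3 window alone, at -170 to -165, and in 7.17% of all windows. The windows held 18 (Rec8) to 43 (Stag1) CpG dinucleotides, with 23 in Smc1a, 29 in Smc1b and 30 in Stag3, against a median of 7. The core TCCCGC itself contains a CpG, and its share of 20.1% was not taken over windows of like CpG number. Its presence in all 6 windows is therefore not read as an enrichment. A match describes these letters and is no measurement of binding.

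Smc1b, the meiotic arm protein, had the widest range of the 8 members, 298-fold between group means. Its upper end was the E13.5 mean of 6.32, which includes replicate 1, with the juvenile mean next at 5.55. Its log2 level was -1.38 and -0.84 in Stella-GFP- ES cells, -0.73 and -0.40 in Stella-GFP+ ES cells, -1.94 and -1.86 in Dazl-GFP- ES cells, and 0.10 and -0.01 in Dazl-GFP+ ES cells. In differentiated cells it was 3.95 and 3.89 at day 7, 4.99 and 4.95 at day 12, and 4.96 and 4.96 at day 16. In vivo it was 7.26 and 5.38 at E13.5, and 6.05 and 5.05 in juvenile cells. Every differentiated or in vivo array thus lay above every ES array, with days 12 and 16 overlapping, and juvenile cells overlapping E13.5. From Stella-GFP+ ES cells to day 7 Smc1b rose by 4.49 ± 0.48 (log2 difference ± SE, 2 arrays a group; 22.5-fold, limma adjusted p = 0.000202). From Dazl-GFP+ ES cells it rose by 4.93 at day 12 (30.5-fold, limma adjusted p = 4.24e-05) and by 4.92 at day 16 (limma adjusted p = 4.99e-05). It was 6.27 higher at E13.5 (77.4-fold, limma adjusted p = 2.25e-06), or 5.33 without replicate 1, and 5.50 higher in juvenile cells (45.4-fold, limma adjusted p = 3.56e-06). E13.5 exceeded day 16 by 1.35 (limma adjusted p = 0.0419). That difference was 0.41 without E13.5 replicate 1 and was not called (limma adjusted p = 0.376). The call was lost without any one of 13 of the 18 libraries (limma adjusted p = 0.0512 to 0.376) and with quantile normalization, which gave 0.90 (limma adjusted p = 0.261).

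Stag3, the meiotic STAG protein, ranged 43.7-fold, up to the E13.5 mean of 4.36, which includes replicate 1, with the juvenile mean next at 4.03. In ES cells its log2 level was -0.19 and 0.24 (Stella-GFP-), 0.38 and 0.82 (Stella-GFP+), -1.12 and -1.06 (Dazl-GFP-), and 0.06 and 0.34 (Dazl-GFP+). It was 2.99 and 3.06 at day 7, 3.26 and 3.33 at day 12, and 2.78 and 2.78 at day 16. It was 4.85 and 3.87 at E13.5, and 4.22 and 3.83 in juvenile cells. As for Smc1b, no ES array reached a differentiated or in vivo one. Unlike for Smc1b, day 7 lay between days 16 and 12. E13.5 and juvenile cells overlapped, as they did for Smc1b. Stag3 rose by 2.43 ± 0.29 at day 7 (5.38-fold, limma adjusted p = 0.000365), by 3.09 at day 12 (8.54-fold, limma adjusted p = 3.33e-05) and by 2.58 at day 16 (limma adjusted p = 0.000128). It was 4.16 higher at E13.5 than in Dazl-GFP+ ES cells (17.9-fold, limma adjusted p = 1.17e-06), 3.67 without replicate 1, and 3.83 higher in juvenile cells (14.2-fold, limma adjusted p = 1.26e-06). E13.5 exceeded day 16 by 1.58 (limma adjusted p = 0.00133), and by 1.09 without replicate 1 (limma adjusted p = 0.00578). With the compared arrays alone the 1.58 was not called (limma adjusted p = 0.0787).

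Rec8, the meiotic kleisin, ranged 13.9-fold. Its log2 level in ES cells was 2.28 and 2.89 (Stella-GFP-), 2.50 and 3.24 (Stella-GFP+), 1.62 and 1.67 (Dazl-GFP-), and 1.98 and 1.76 (Dazl-GFP+). At day 7 it was 3.44 and 3.30, at day 12 5.39 and 5.49, and at day 16 5.36 and 5.39. At E13.5 it was 7.45 and 3.14, and in juvenile cells 4.48 and 3.24. Days 12 and 16 lay close together and far above the ES cells, while 1 E13.5 array was the highest of all 18 and the other lay below day 7. At day 7 the difference from Stella-GFP+ ES cells was 0.50, with a 95% interval of -1.63 to 2.63, and it was not called (limma adjusted p = 0.761). Rec8 rose by 3.57 ± 0.97 at day 12 (11.9-fold, limma adjusted p = 0.0186) and by 3.51 at day 16 (limma adjusted p = 0.0222). The day 7 change minus the day 12 change, tested after seeing the data, was -3.07 ± 1.4 and was not called (limma adjusted p = 0.252). Minus the day 16 change it was -3.01, also not called (limma adjusted p = 0.301). The changes of Rec8 at day 7 and at days 12 and 16 are thus not shown to differ. The wide SE of Rec8 came with the spread of the E13.5 arrays, since the fit shares 1 estimate of spread over all groups. Without E13.5 replicate 1 the day 12 value was the same 3.57 with limma adjusted p = 6.53e-05. Without any one of the 4 arrays compared the call was lost, at day 12 (limma adjusted p = 0.0737 to 0.0888) and at day 16 (limma adjusted p = 0.0862 to 0.101).

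In vivo, Rec8 depended on which E13.5 library was used. It was 3.43 higher at E13.5 than in Dazl-GFP+ ES cells with both arrays (limma adjusted p = 0.0135), 1.27 higher without replicate 1 (limma adjusted p = 0.0438) and 5.58 higher without replicate 2 (limma adjusted p = 6.02e-06). Without Dazl-GFP+ ES replicate 2 it was not called (limma adjusted p = 0.0642), nor with the compared arrays alone (limma adjusted p = 0.188). Against day 16 the E13.5 difference was -0.08 with both (limma adjusted p = 0.954), -2.24 without replicate 1 (limma adjusted p = 0.00283) and 2.07 without replicate 2 (limma adjusted p = 0.00404). In juvenile cells Rec8 was 1.99 higher than in Dazl-GFP+ ES cells, with an interval of -0.13 to 4.12, and was not called (limma adjusted p = 0.104). Without E13.5 replicate 1 that difference was called (limma adjusted p = 0.000923). The second Rec8 probe gave 0.55 at day 7, 2.99 at day 12, 2.94 at day 16, 3.76 at E13.5 and 2.18 in juvenile cells, each against GFP+ ES cells of the same line or, in vivo, of the Dazl-GFP line.

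**Figure D1:**
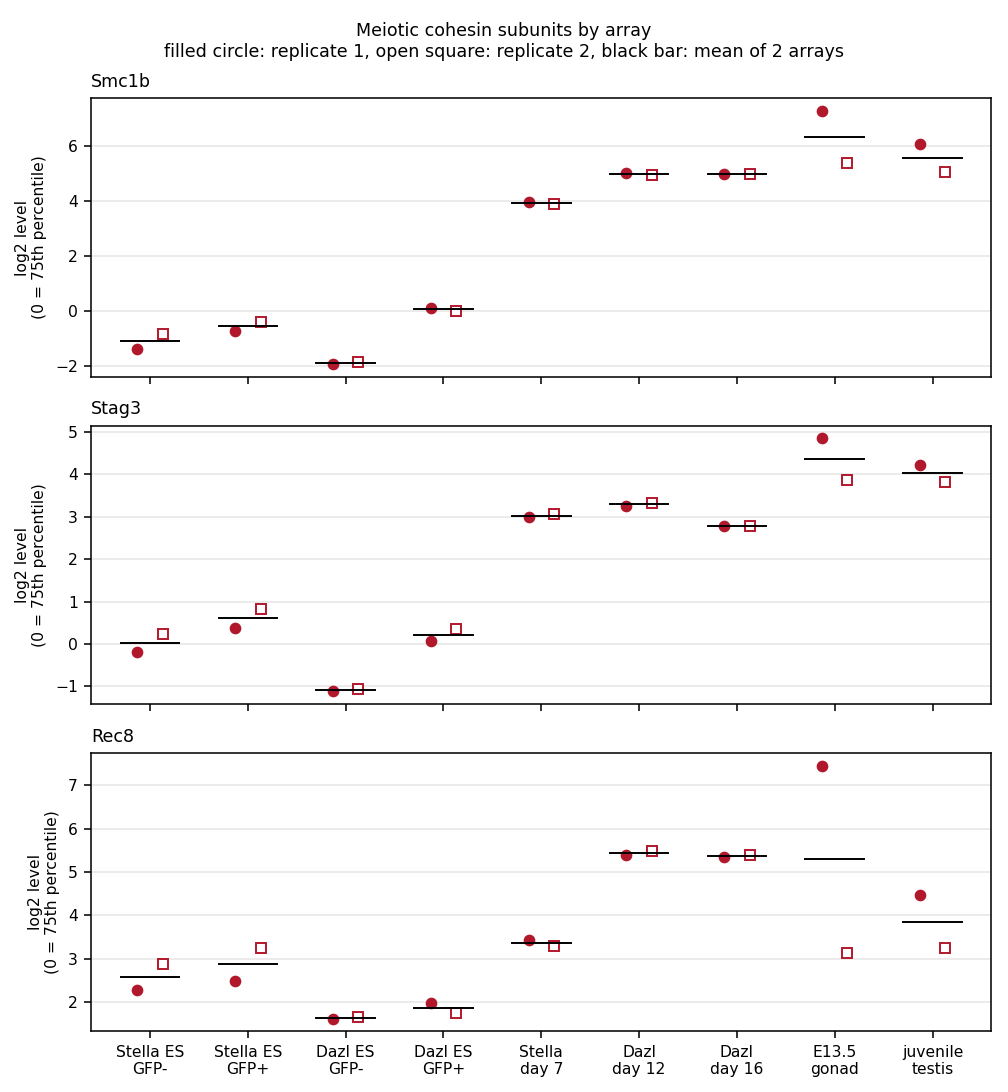
Log2 level (0 is the 75th percentile of the array) of Smc1b, Stag3 and Rec8 on each of the 18 arrays, by group, with the mean of 2 arrays as a bar. Smc1b and Stag3 lie above all ES arrays from day 7 on. Rec8 does so at days 7, 12 and 16, while E13.5 replicate 2 (3.14) lies below the highest ES array (3.24) and juvenile replicate 2 (3.24) level with it. The E13.5 arrays are 4.31 apart for Rec8.

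Between sorted fractions of undifferentiated cells, Stag3 in the Dazl-GFP line was the only meiotic subunit called. There, GFP+ cells had 1.29 ± 0.29 more Stag3 than GFP- cells (2.44-fold, limma adjusted p = 0.0413), and Smc1b was 1.94 higher (3.85-fold) without passing the threshold (limma adjusted p = 0.0583). Both had the same sign on each slide that carried both fractions, at 2.04 and 1.85 for Smc1b and at 1.18 and 1.40 for Stag3. With slide as a block both were called (limma adjusted p = 0.00375 for Smc1b and 0.0042 for Stag3). Rec8 differed by 0.22, with an interval of -1.90 to 2.35. The Stag3 call was lost with either other normalization, with no filter on dim probes (limma adjusted p = 0.0609) and without any of 10 of the 18 libraries in turn. Without E13.5 replicate 1 both genes were called, Smc1b with limma adjusted p = 0.00402 and Stag3 with limma adjusted p = 0.00583. The same GFP+ cells were higher in 5 of the 10 fibroblast markers, by the summed levels given above, and in 1 of 9 germ cell markers. In this sort 2.87% of all genes were called in either direction. The part of either cell type in these differences was not tested.

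In the Stella-GFP sort no member was called. Smc1b was 0.54 higher in GFP+ cells, with an interval of -0.52 to 1.60, and Stag3 0.57 higher, with an interval of -0.07 to 1.22. Neither was called (limma adjusted p = 1 and 0.907). The difference between the 2 sorts was itself not called for Smc1b (-1.40, interval -2.91 to 0.10) or Stag3 (-0.71, interval -1.63 to 0.20; limma adjusted p = 1 for both), so the sorts are not shown to differ.

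The shared and mitotic subunits had smaller ranges, between 1.89-fold and 3.03-fold over the group means. Smc1a, the somatic arm protein encoded on the X chromosome, had log2 levels from 4.42 to 4.95 in all 16 arrays other than the juvenile ones. In juvenile cells it was 3.43 and 3.67, below every other array. It was thus 1.04 ± 0.16 lower than in Dazl-GFP+ ES cells (2.06-fold, limma adjusted p = 0.000231) and 1.09 lower than at E13.5 (limma adjusted p = 0.000362), or 1.17 lower without E13.5 replicate 1. With normexp the difference from ES cells was -0.44 and was not called (limma adjusted p = 0.136), and with the compared arrays alone that from E13.5 was not (limma adjusted p = 0.168). The second Smc1a probe was also lower in juvenile cells, by 1.32 and 1.01 on the log2 scale. Against ES cells, 4 of 10 markers of dividing cells were lower in juvenile cells too, where 27.5% of all genes were lower. The 10 markers summed to 119 and 123 there against 171 and 172 in Dazl-GFP+ ES cells. Of 8 Sertoli markers 4 were higher, where 26.3% of all genes were. The part of either in the Smc1a difference was not tested. In culture Smc1a differed by -0.08 at day 7 (interval -0.43 to 0.27), 0.03 at day 12 (-0.33 to 0.38) and -0.17 at day 16 (-0.52 to 0.19), and none was called. The second probe gave a call at day 7 (0.73) and none at days 12 and 16.

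Smc3, the arm protein common to both kinds of ring, had log2 levels of 4.10 and 3.75 in Stella-GFP+ ES cells and 4.68 and 4.55 at day 7. The groups did not overlap, and Smc3 rose by 0.69 ± 0.16 (1.61-fold, limma adjusted p = 0.0134). The call was lost without Stella-GFP+ ES replicate 2 or either day 7 array (limma adjusted p = 0.0555 to 0.109). At days 12 and 16 its levels of 3.90 to 4.03 lay around those of Dazl-GFP+ ES cells (3.93 and 3.97), and no difference was called. At E13.5 it was 4.52 and 4.38, higher by 0.50 (limma adjusted p = 0.0278), but without replicate 1 the difference of 0.43 was not called (limma adjusted p = 0.0781), nor was the difference called without either Dazl-GFP+ ES array or with quantile normalization (0.42, limma adjusted p = 0.0885). The second Smc3 probe gave 1.37 at day 7 and 1.60 at E13.5, and both were called.

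Rad21, the somatic kleisin, had log2 levels of 5.41 and 5.41 in Dazl-GFP+ ES cells, 5.95 and 5.98 at day 12 and 5.93 and 5.93 at day 16. The groups did not overlap, but the differences of 0.56 (interval -0.02 to 1.13, limma adjusted p = 0.139) and 0.52 (-0.05 to 1.09, limma adjusted p = 0.17) were not called. Without E13.5 replicate 1 both were (limma adjusted p = 0.0353 and 0.0475). In vivo Rad21 was 4.75 and 5.60 at E13.5 and 4.61 and 5.25 in juvenile cells, both arrays at E13.5 below day 16. It fell by 0.76 from day 16 to E13.5 (1.69-fold, limma adjusted p = 0.0357), but without E13.5 replicate 1 the difference was -0.33 and not called (limma adjusted p = 0.258). The call was lost without any one of 7 libraries, and with normexp background correction the value was 0.14, of the other sign. The second Rad21 probe gave -1.22 between day 16 and E13.5, and was called.

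Stag1, a somatic STAG protein, had 4 probes that differed. On the representative probe its log2 level was 1.97 and 1.97 in Stella-GFP+ ES cells and 1.41 and 1.49 at day 7, a fall of 0.52 ± 0.15 (-0.52, limma adjusted p = 0.0324). It was 1.58 and 1.41 in Dazl-GFP+ ES cells, 2.14 and 2.09 at day 12 (0.62 higher, limma adjusted p = 0.0113), and 1.84 and 1.82 at day 16 (0.34, limma adjusted p = 0.13). At E13.5 it was 3.05 and 3.05, which is 1.56 above Dazl-GFP+ ES cells (2.94-fold, limma adjusted p = 1.24e-05), and in juvenile cells 2.97 and 2.77, which is 1.38 above (limma adjusted p = 1.95e-05). The E13.5 difference was 1.55 without replicate 1 (limma adjusted p = 4.56e-05). The day 7 call was lost without any one of 10 libraries and with either other normalization, and the day 12 call without either day 12 array or Dazl-GFP+ ES replicate 2. On that probe the in vivo arrays were the highest of all. The other probes did not share this. For juvenile cells they gave -0.35, -1.26 (called lower) and 1.59 (called higher), for E13.5 0.93 (called) and -0.21 (not called), with the last uncalled, and for day 7 -0.27, -0.01 and 1.07. With the mean over all probes the day 7 difference became 0.07 (limma adjusted p = 0.875) the day 12 difference 0.47 (limma adjusted p = 0.151) and the juvenile one 0.34 (limma adjusted p = 0.228), none of them called. The E13.5 difference was then 0.82 and was called (limma adjusted p = 0.0116). Stag1 as a gene therefore has no settled direction at day 7 or in juvenile cells. On the representative probe the day 7 change minus the day 12 change was called, as for 3.89% of all genes, and the day 7 change minus the day 16 change was not, against 3.19%. The values are given with the results for a closer look.

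Stag2, the other somatic STAG protein, had log2 levels of 0.79 and 1.01 in Dazl-GFP+ ES cells, 0.04 and 0.11 at day 12, 0.17 and 0.24 at day 16, and -0.31 and 0.21 at E13.5. All later arrays lay below the ES ones. The differences of -0.82 at day 12 (limma adjusted p = 0.0955) and -0.70 at day 16 (limma adjusted p = 0.161) were not called, and that of -0.95 at E13.5 was (limma adjusted p = 0.0395). Without E13.5 replicate 1 it was -0.69 and not called (limma adjusted p = 0.198), and the call was lost without any one of 11 of the 18 libraries (limma adjusted p = 0.0527 to 0.198). Of the other 2 probes 1 was called lower at day 12 (-0.98), day 16 (-0.90) and E13.5 (-1.45), and the other gave -0.73, -0.21 and -0.03 there, none called. In juvenile cells the 3 probes gave -0.44, 0.50 and -0.95, in both directions, with only the last called. Stag2 in the Stella-GFP line spread widely between replicates, at 0.94 and -0.24 in GFP+ ES cells.

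**Figure D2:**
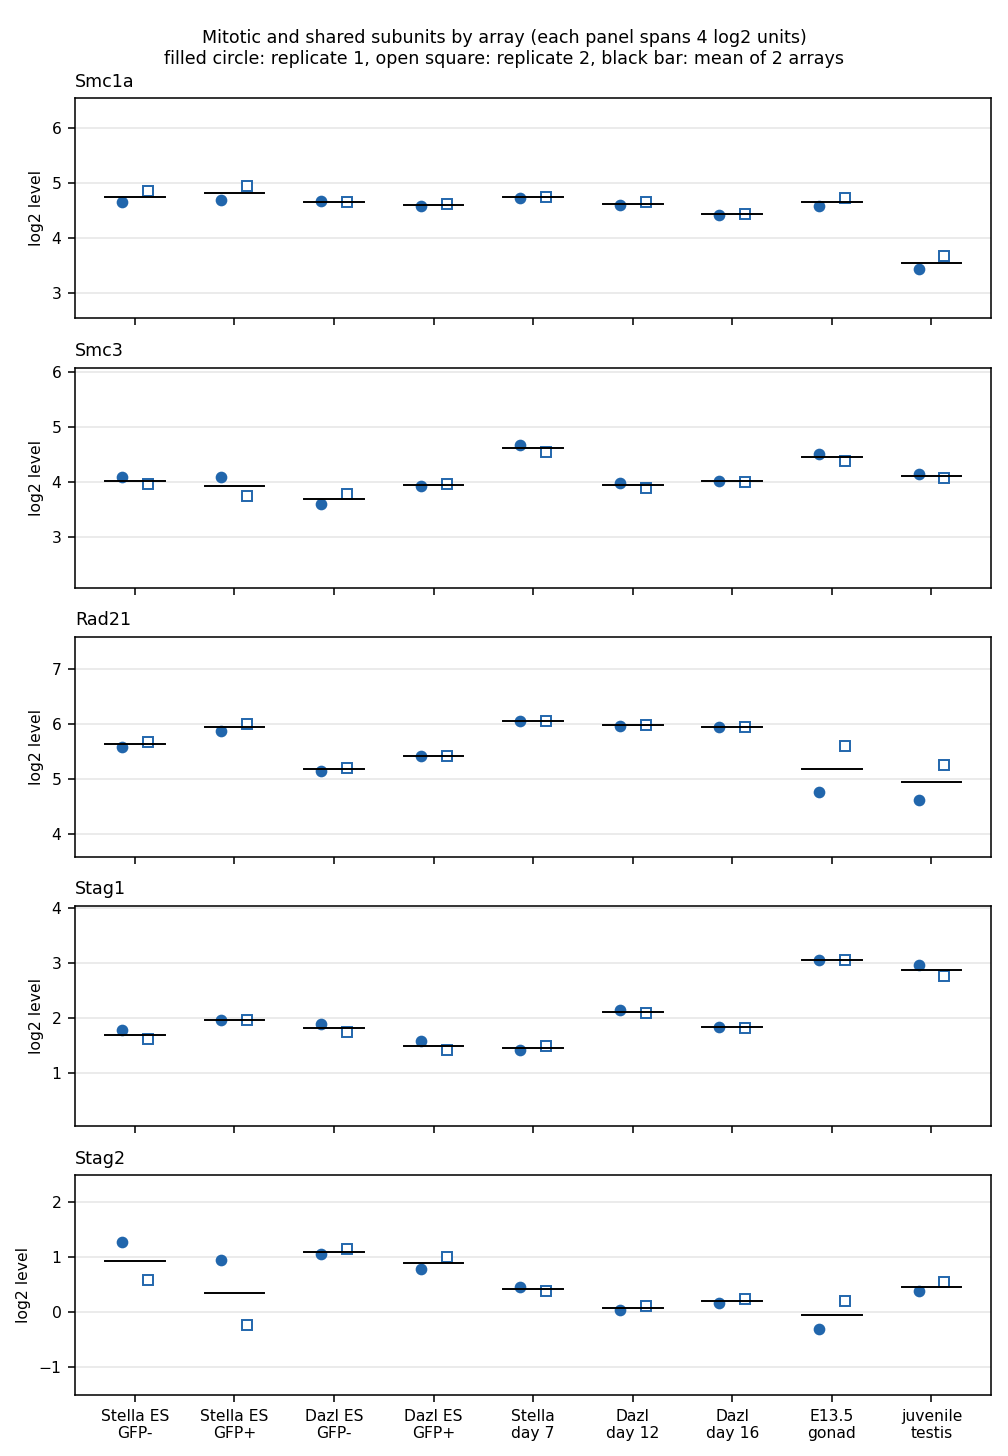
Log2 level of Smc1a, Smc3, Rad21, Stag1 and Stag2 (representative probe) on each array, by group, every panel spanning 4 log2 units. The range over group means is 1.89-fold (Smc3) to 3.03-fold (Stag1), and Smc1a is lowest in the 2 juvenile arrays.

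**Figure D3:**
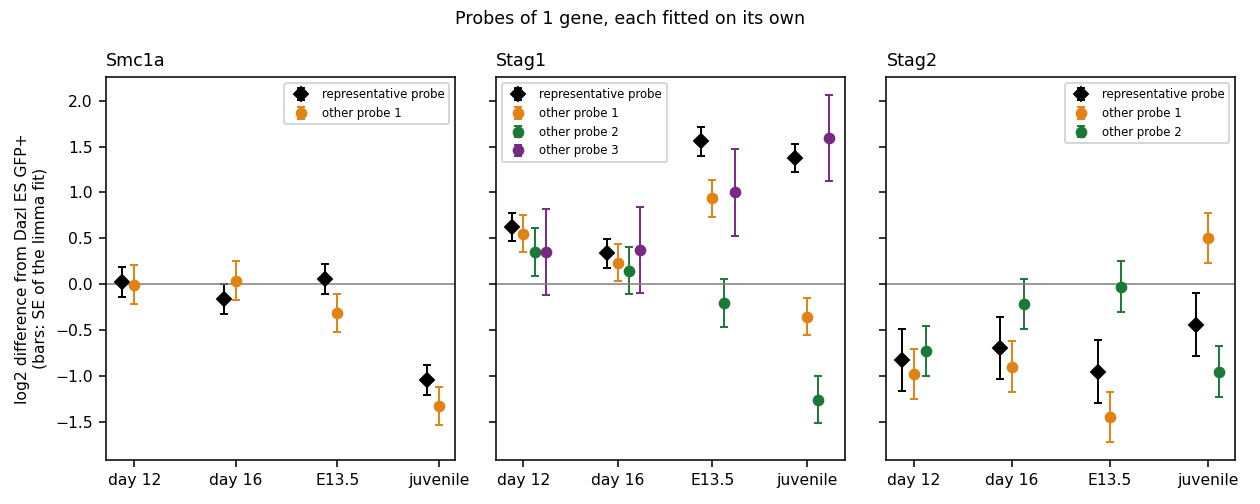
Log2 difference from Dazl-GFP+ ES cells (with SE, limma) of every probe of Smc1a, Stag1 and Stag2 in 4 groups. The Smc1a probes fall together in juvenile cells, while those of Stag1 lie between -1.26 and 1.59 there and those of Stag2 between -0.95 and 0.50.

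Each meiotic subunit was then set against its mitotic paralogue as a difference between groups in their within-array log2 difference, which cancels the scaling of the array. With 2 arrays a group the smallest exact permutation p is 0.333, so an exact test cannot pass the threshold, and no model was fitted to these ratios. Smc1b over Smc1a differed by 0.46 between the fractions of the Stella-GFP sort and by 2.01 in the Dazl-GFP sort. It was 4.57 higher at day 7 than in Stella-GFP+ ES cells. Against Dazl-GFP+ ES cells it was 4.90 higher at day 12, 5.09 at day 16, 6.22 at E13.5 (5.21 on replicate 2 alone) and 6.55 in juvenile cells, where the Smc1a level was 1.04 lower. The arrays did not overlap in any of these, and with the second Smc1a probe they lay between 0.56 and 6.83.

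For the kleisins, Rec8 over Rad21 differed by -0.02 in either sort and by 0.38 at day 7, and by 3.02 at day 12 and 2.99 at day 16. In vivo the value was 3.66 at E13.5 and 2.47 in juvenile cells. E13.5 replicate 1 alone gave 6.24 and replicate 2 alone 1.08. At day 7 the Smc1b ratio differed by 4.57 and the kleisin ratio by 0.38, each measured in the same 4 arrays.

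For the STAG proteins, Stag3 over Stag1 differed by 0.30 in the Stella-GFP sort, where the arrays overlapped, by 1.62 in the Dazl-GFP sort, 2.95 at day 7, 2.47 at day 12 and 2.25 at day 16. The value was 2.61 at E13.5 (2.12 on replicate 2 alone) and 2.45 in juvenile cells. Over Stag2 the values were 1.16 (arrays overlapping), 1.48, 2.36, 3.92, 3.28, 5.11 (4.37 on replicate 2 alone) and 4.27 in the same order. All pairs of probes gave a positive sign for both ratios in each of these, with the widest spread in juvenile cells, from 2.24 to 5.09 over Stag1 and from 3.32 to 4.78 over Stag2.

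**Figure D4:**
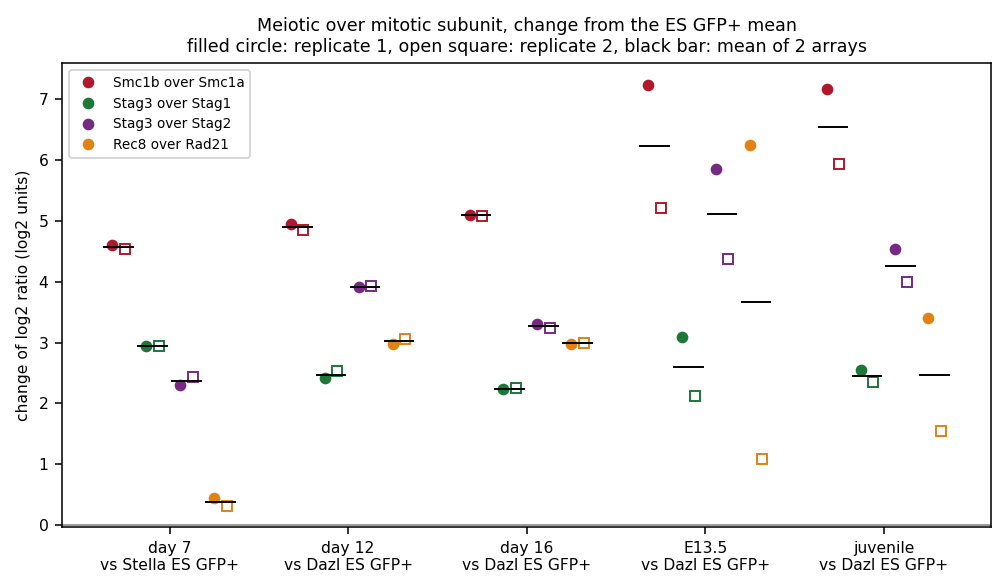
Change of the within-array log2 difference between a meiotic subunit and its mitotic paralogue, from the mean of the GFP+ ES cells named under each group, for each array. The Rec8 over Rad21 change is 0.38 at day 7 and 3.02 at day 12, and the E13.5 replicates lie at 6.24 and 1.08.

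Counted over the members, the Stella-GFP sort had 0 of 8 called by limma (0 at an unadjusted p under 0.05), against 0.456% of all genes. The Dazl-GFP sort had 1 of 8, against 2.87%, and the arrays of the 2 fractions did not overlap for any of the 8, which held for 60% of all genes. At day 7, 4 of 8 were called against 20.6% of all genes: Smc1b, Stag3 and Smc3 higher, Stag1 lower. The median of the 8 members was 0.31, against -0.15 for all genes. At day 12, 4 of 8 were called against 27.3%: Smc1b, Stag3, Rec8 and Stag1, all higher, with a median of 0.59 against -0.11. At day 16, 3 of 8 were called against 24.7%, namely the meiotic Smc1b, Stag3 and Rec8. From day 12 to day 16, 0 of 8 were called by limma (0 at an unadjusted p under 0.05) against 1.01%, and the largest difference was -0.51, for Stag3 (interval -1.16 to 0.13).

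At E13.5 against Dazl-GFP+ ES cells, 6 of 8 were called against 44.9% of all genes. The count of 6 depends on replicate 1. Without it, which leaves 1 array in the group, the Smc3 difference went from 0.50 to 0.43 and the Stag2 difference from -0.95 to -0.69. Against day 16, 4 of 8 were called against 42.5%, close to the background. Without replicate 1 the Smc1b difference there went from 1.35 to 0.41 and the Rad21 difference from -0.76 to -0.33. Juvenile cells had 4 of 8 called against 53.8%, again close to the background. Between juvenile cells and E13.5, 1 of 8 was called against 34.9%, the lower Smc1a. In the difference between the sorts, 0 of 8 were called by limma (1 at an unadjusted p under 0.05, Stag1) against 0.0318%.

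**Figure D5:**
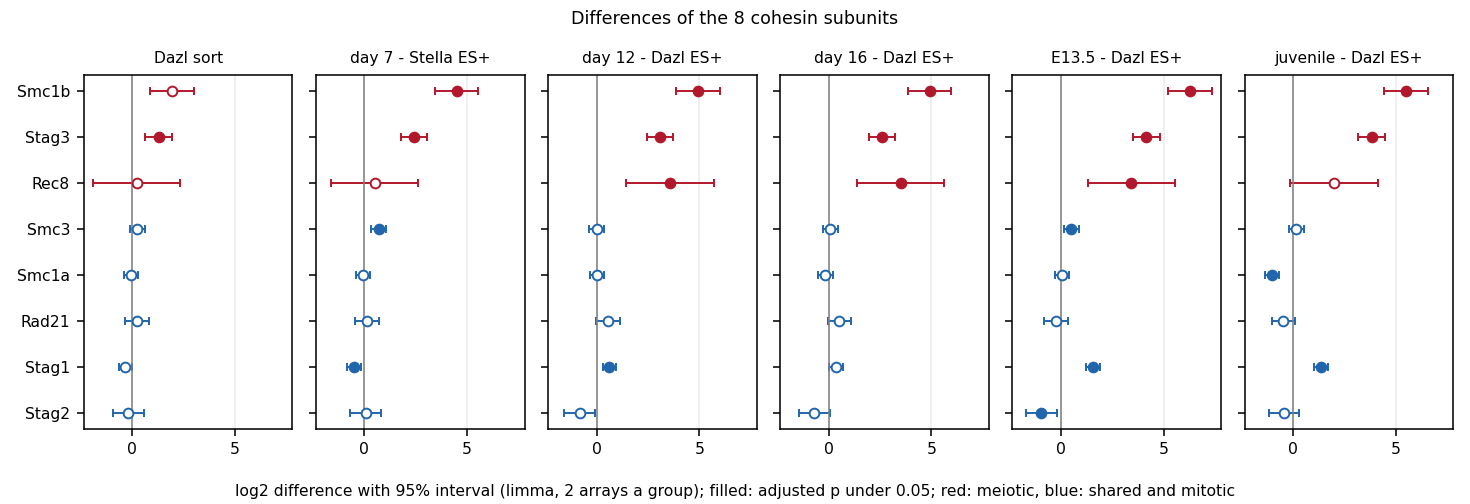
Log2 difference with its 95% interval (limma, 2 arrays a group) of the 8 members in 6 comparisons, filled where the adjusted p is under 0.05. Smc1b lies furthest right in each panel, and Rec8 lies at 0.50 at day 7 and at 3.57 at day 12, changes whose difference was not called.

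Genes that load, release or cut cohesin are read against the share of all genes called. Of 14 tested, 1 fell and 0 rose at day 7, where 20.6% of all genes were called, namely Ctcf, which positions cohesin on chromosomes (-0.92, limma adjusted p = 0.0123). At day 12, 1 rose, the securin Pttg1 (1.41), and 2 fell, the release factor Wapl (-0.76) and its partner Pds5b (-0.77), where 27.3% of all genes were called. At day 16 Pttg1 was higher (1.13) and Wapl lower (-0.91). At E13.5, 4 of 14 were higher than in Dazl-GFP+ ES cells, among them the cohesin-cutting separase Espl1 (1.61) and the loader Mau2 (0.98), and 2 lower, Ctcf (-1.58) and the cohesin protector Sgo2a (-1.19), where 23.5% of all genes were higher and 21.4% lower. Without E13.5 replicate 1, the list's median was 0.41 there, against 0.08 for all genes. In juvenile cells 4 were higher, among them Espl1 (0.87) and Pds5b (1.35), and 3 lower, Ctcf (-1.72), the cohesin deacetylase Hdac8 (-1.65) and the loader Nipbl (-1.74), where 26.3% of all genes were higher and 27.5% lower. The counts of this list thus lay near the background in vivo. The list's medians were -0.04 at day 7, -0.32 at day 12, -0.35 at day 16, 0.32 at E13.5 and 0.10 in juvenile cells.

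Genes of the meiotic chromosome axis and synaptonemal complex, which assemble on meiotic cohesin, were counted next. Of 11 tested, 3 rose at day 7, where 7.62% of all genes did: the HORMA proteins Hormad2 (3.58) and Hormad1 (2.48), and Tex12 of the central element, not well above background in ES cells and at least 3.49-fold higher. At day 12, 8 rose, where 13.1% of all genes did, among them Syce1 (2.33). At day 16, 10 of 11 rose, where 11.1% of all genes did, among them Meikin, a protector of cohesin at centromeres, at least 1.81-fold higher. At E13.5 and in juvenile cells 10 of 11 were higher than in Dazl-GFP+ ES cells, where 23.5% and 26.3% of all genes were, and in neither was any lower. At E13.5 9 of 11 were higher without replicate 1, where 22.3% of all genes were. The medians of the list were 1.34 at day 7, 2.54 at day 12, 3.83 at E13.5 and 4.83 in juvenile cells. "At least" folds were taken against the lowest signal well above background on each array.

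Genes of meiotic entry act upstream of or beside the axis. Of 10 tested, 1 rose at day 7, Rec114 of the break-forming machinery (2.69), and 1 fell, Mei4 (at least 1.55-fold), where 7.62% of all genes rose and 13% fell, so these counts lay near the background. At day 12, 4 rose, among them Stra8 (8.95, limma adjusted p = 0.00314), Mael (3.44) and Rec114 (3.52), and 4 rose at day 16, where Mei4 was the only one lower; 13.1% and 11.1% of all genes rose then. At E13.5, 7 of 10 were higher against 23.5% of all genes. Without replicate 1, which leaves 1 array in that group, the list's median fell from 2.88 to 1.61, against 0.08 for all genes. The Stra8 difference fell from 5.26 to 1.60. Stra8 had log2 levels of 3.45 and 3.48 at day 7, 8.95 and 8.84 at day 12, 8.53 and 8.44 at day 16, 8.87 and 1.55 at E13.5, and 7.75 and 7.06 in juvenile cells. Stra8 in E13.5 replicate 2 thus lay below both day 7 arrays, as Rec8 did, while replicate 1 lay within the range of the day 12 arrays. No test compared the courses of the genes.

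Of 14 genes of condensin and the Smc5/6 complex, none was called at day 7, and at most 1 in each direction at days 12 and 16 (Nsmce1 0.96 at day 12, and Eid3 lower at both), against 20.6%, 27.3% and 24.7% of all genes called in either direction. At E13.5, 5 were higher, among them the condensin subunits Ncapg (1.08) and Smc4 (1.10), and 2 lower, against 23.5% and 21.4% of all genes. Leaving out E13.5 replicate 1, the list's median was 0.55, against 0.24 with both arrays, and the Smc4 difference was 1.01. In juvenile cells 3 were higher, among them Smc5 (1.81) and Smc6 (1.14), and 3 lower, among them Smc2 (-1.33), against 26.3% and 27.5% of all genes. Of 19 repressors of germline genes, 4 fell at day 7, 5 at day 12 and 4 at day 16, among them in each the DNA methyltransferase Dnmt3b (-2.71, -3.61 and -3.13), against 13%, 14.2% and 13.6% of all genes. The repressor Mga rose at day 7 (0.77). At E13.5, 6 of the 19 were higher, among them Ehmt2 (1.21), and 5 lower, with Dnmt3b at -6.33. Of all genes 23.5% were higher and 21.4% lower there, so these counts lay near the background. The list's median was 0.06, and 0.04 without replicate 1. In juvenile cells 5 were higher and 9 lower, with E2f6 (2.03) among the higher and Ezh2 (-1.92) among the lower. Of all genes 26.3% were higher and 27.5% lower there, and the count of higher repressors lay near that share.

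Over the 9 group means, which share their arrays and slides, the genes most like each meiotic subunit were ranked by Pearson r, as a description. The ranking took only the tested genes with a RefSeq symbol, and the E13.5 means include replicate 1. For Smc1b they were Rbm44 (0.995), Gpat2 (0.992), Copg2, Xlr4b and Naxe (0.988 each). For Stag3 they were Dop1b (0.993), Gpat2 (0.992), C9orf72 (0.990), Exd2 (0.988) and Crebl2 (0.985). For Rec8 they were Cntln (0.991), Dmrtc1c1 (0.979), Dennd1a (0.976), Bmf (0.974) and Sohlh2 (0.973). Smc1b and Stag3 followed each other at r = 0.983, Smc1b and Rec8 at 0.883, and Stag3 and Rec8 at 0.851. With their mitotic paralogues the values were -0.463 for Smc1b and Smc1a, 0.645 for Stag3 and Stag1, -0.851 for Stag3 and Stag2, and 0.233 for Rec8 and Rad21. In the authors' deposited table of group means, by the row with the highest mean for each gene, Smc1b stood at 9.32 in Stella-GFP+ ES cells and 202 at day 7, and in the authors' deposited table Rec8 stood at 49.8 in Dazl-GFP+ ES cells and 645 at day 12.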

How the data were processed

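The 18 samples were each measured on an Agilent mouse array with a single dye. Per the file headers, the authors extracted the spots with Feature Extraction 9.1.3.1, which subtracted background, and the deposited intensity values used here are its processed signals. The deposited table of group means is intensity as well, set to median values by the authors in GeneSifter, per the file headers. Spots of 1 probe were averaged, 172 probes with outlier flags were left out, and each array was scaled to its 75th percentile on a log2 scale, computed here from the deposited intensities. Probes well above background on both arrays of at least 1 group were kept. Differences were tested with limma 3.58.1 in R 4.3.3 over all 9 groups, with empirical Bayes moderation and Benjamini-Hochberg adjustment. The script was tested on simulated data. Alternatives covered scaling, background correction, filters, probes, slide, replicate number, samples in the fit and each library left out. The named genes are all 8 members, at most 4 called genes per direction of each list by smallest p, and the 5 genes most like each meiotic subunit. The members, lists and motifs were chosen with earlier results of these data known. Arrays give no counts, so their number limits the precision.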

Additional observations from a re-analysis of the deposited data

Results flagged for a closer look

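The representative probe of Stag1 was called in opposite directions on differentiation in the 2 lines, while the gene has no settled direction at day 7. On this probe it fell from Stella-GFP+ ES cells to day 7 and rose from Dazl-GFP+ ES cells to day 12, and a test of the difference between these changes, chosen after seeing the pattern on this probe and so no independent evidence of it, gave -1.14 ± 0.21 (log2, limma adjusted p = 0.0152, against 3.89% of all genes called). Against the day 16 change the difference was -0.858 and was not called (limma adjusted p = 0.0568). The 3 other Stag1 probes gave -0.27, -0.01 and 1.07 at day 7, none of them called, the mean over all probes gave 0.07 at day 7 and 0.47 at day 12 (limma adjusted p = 0.875 and 0.151), and the day 7 arrays lay on slides of their own.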

How the results depend on the processing

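The 27 member calls were recomputed under 10 other settings with a test: 242 of 270 values kept the call, 26 lost it and 2 turned sign. Stag1 at day 7 turned to 0.07 with the mean over probes, and Rad21 between day 16 and E13.5 to 0.14 with normexp. Rec8 between day 16 and E13.5, not called, became a call of 2.07 without E13.5 replicate 2 and of -2.24 without replicate 1. The Dazl-GFP sort had 0 members called with quantile normalization, normexp, no dim filter or the replicate block, and 2 with slide as a block, the compared arrays alone or an intensity trend. With the compared arrays alone, counts were 2 at day 7, 5 at day 16, 2 for day 16 against day 12, 3 for E13.5 against ES cells, 1 for E13.5 against day 16 and 0 for juvenile cells against E13.5. Day 16 had 5 with quantile normalization or slide as a block, day 16 against day 12 had 3 with normexp, and E13.5 against day 16 had 2 with no dim filter. Leaving out each library in turn gave 0 to 2 in the Dazl-GFP sort, 2 to 4 at day 7, 2 to 5 at day 12, 2 to 4 at day 16, 3 to 7 at E13.5, 2 to 6 for E13.5 against day 16, 4 to 6 in juvenile cells and 1 to 4 for juvenile cells against E13.5. The cause of these changes was not tested. Over all genes, the counts called were 86 (Stella-GFP sort), 542 (Dazl-GFP sort), 3895 (day 7), 5151 (day 12), 4668 (day 16), 190 (day 16 against day 12), 8470 (E13.5), 8018 (E13.5 against day 16), 10164 (juvenile), 6579 (juvenile against E13.5) and 6 (difference of the sorts). With normexp they were 9, 75, 833, 1464, 1086 and 7035 for the first 6, 13809 for E13.5 against day 16 and 0 for the difference of the sorts. With slide as a block they were 700 and 2661 for the sorts, 8555 at day 12, 8441 at day 16, 759 for day 16 against day 12 and 113 for the difference of the sorts. With the compared arrays alone they were 0 and 2638 for the sorts, 9240 at day 12, 9751 at day 16, 3724 for day 16 against day 12, 3479 at E13.5, 3243 for E13.5 against day 16, 365 for juvenile cells against E13.5 and 3 for the difference of the sorts. With no dim filter they were 55 in the Stella-GFP sort, 7179 at day 16, 13959 at E13.5 and 15890 in juvenile cells. Keeping probes well above background on every array compared gave 43 and 340 for the sorts, 86 for day 16 against day 12 and 2 for the difference of the sorts, which had 18 with quantile normalization and 1 with an intensity trend. Quantile normalization moved the median of all genes by -0.09 to 0.13, and normexp by -0.73 to 0.36. The labels do not tie replicate numbers to a shared culture or animal, so the numbers were not used as pairs. Same-numbered deviations nevertheless correlated above 0.1 in 8 of 36 group pairs. These were all 6 pairs of the Dazl-GFP culture groups (0.300 to 0.549), the Stella-GFP ES fractions (0.558), and E13.5 with juvenile cells (0.245). The p-values of the main fit take no account of this shared spread. The replicate block changed 1 member call, Stag3 in the Dazl-GFP sort (limma adjusted p = 0.0549), with 0 of 8 called there. The paralogue changes kept their sign in 79 of 80 values under both scalings. Every member's representative probe was well above background on all 18 arrays. The Stag3 difference in the Dazl-GFP sort still moved with background correction, from 1.29 to 0.73 with normexp.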
